A study of Mus musculus with 9 samples.

Results

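Apoptotic cells, myelin and amyloid are taken up by phagocytes through a limited number of surface receptors. Described here are 10 genes of that uptake machinery, namely the TAM receptors Axl and Mertk, their bridging ligands Gas6 and Pros1, the scavenger receptors Msr1, Cd36, Scarb2, Stab1 and Colec12, and the endocytic receptor Lrp1. They were chosen by symbol for this function, and they are 10 of the 18571 genes in the deposited table. RNA came from cells that an anti-CD45 antibody retained from papain-digested cortex and hippocampus of 9-month-old C57BL6/j mice, and poly-A RNA was sequenced on a DNBSEQ platform from a single end over 50 nt. The labels call these cells microglia, but CD45 is also carried by border macrophages, monocytes, neutrophils and lymphocytes. Of the 3 groups of 3 libraries, WT carried no transgene in its label. The APP/PS1 group is a transgenic model of amyloid deposition. The remaining group, called Cx43 cKO here, carried APP/PS1 with Cx3cr1-CreER and floxed Cx43, in which tamoxifen-activated Cre under Cx3cr1 control is meant to delete the gap junction protein connexin 43 in cells that express Cx3cr1. Tamoxifen was given to all 3 groups at 8 months, by gavage for 5 days at 0.1 mg/g, per the labels. The WT and APP/PS1 labels name neither Cre nor the floxed allele, so the effects of deletion, of the Cre allele and of genetic background cannot be told apart. The labels do not say whether libraries came from separate mice, and p-values then measure only the spread between these libraries, which may be technical.

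TAM receptors are receptor tyrosine kinases that recognise phosphatidylserine on dying cells through the vitamin K-dependent proteins GAS6 and protein S. MERTK binds both ligands and is the TAM receptor of resting microglia and other tissue macrophages, whereas AXL is activated by GAS6 and is typically induced in reactive phagocytes. Scavenger receptors are structurally unrelated proteins that share the binding of oxidised lipoproteins and other polyanionic ligands, fibrillar amyloid-β among them, and LRP1 clears apolipoprotein E and amyloid-β from the extracellular space.

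The targeted gene, Gja1 (connexin 43, mainly an astrocyte gene), had 682, 642 and 716 estimated counts for the WT libraries, 727, 688 and 788 for APP/PS1 and 514, 484 and 539 for Cx43 cKO. It was thus reduced in Cx43 cKO but far from absent, with a log2 change of −0.56 against APP/PS1 (edgeR adjusted p = 7.95e-09). Astrocyte markers fell in the same comparison, 9 of 10 with none higher and a median of −0.46, and their sum went from 735 to 759 CPM in APP/PS1 to 568 to 580 in Cx43 cKO. Their part in the fall of Gja1 was not tested. The level of Cx3cr1, the locus that carries the Cre, fell by 0.88 on the log2 scale in Cx43 cKO against APP/PS1. The Y-linked gene Ddx3y had 4137 to 4538 counts in the WT and APP/PS1 libraries and 0 to 2.34 in Cx43 cKO, so sex and genotype cannot be told apart in any comparison with Cx43 cKO. Libraries held 18907681 to 19565354 counts, and the 10 members took 0.315% to 0.334% of them. Microglial markers were abundant, with a sum over 10 genes of 13643 to 13934 CPM for WT, 20557 to 20906 for APP/PS1 and 16313 to 16544 for Cx43 cKO. Of these genes 7 were higher and 2 lower in APP/PS1 against WT (median 0.57), and 1 was higher and 7 lower in Cx43 cKO than in the APP/PS1 libraries (median −0.32). Their part in the members' changes was not tested. No list of markers of another cell type had a gene at 0. The monocyte and neutrophil sum (11 genes) was 2977 to 2999 CPM for WT, 914 to 948 for APP/PS1 and 8620 to 8746 for Cx43 cKO. In the same order, the erythroid sum (6 genes) was 1184 to 1239, 247 to 275 and 95 to 106 CPM. The B cell sum (5 genes) was 30.3 to 32.7, 10.1 to 11.6 and 19.1 to 20.1 CPM. The T and NK cell sum (4 genes) was 21.3 to 22.8, 32.2 to 33.1 and 24.1 to 26.5 CPM.

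Among the 10 members, Mertk had the highest transcript level in each group. On the length-corrected TPM scale its level was 336.8 ± 5.85 in WT (SD, n = 3 here and below), ahead of Scarb2 at 215.0 ± 5.16. Gas6, Lrp1, Pros1 and Stab1 followed at 132.7 to 165.2 TPM, and the libraries of Gas6 and Lrp1 overlapped. Axl stood seventh in WT at 63.5 ± 1.94 TPM, and Cd36, Colec12 and Msr1 were lowest, at 17.1 to 22.8 TPM, with the last of these not separable from Colec12. In APP/PS1 the Axl level was 161.8 ± 6.13 TPM, second after Mertk at 243.6 ± 6.90 and overlapping Scarb2 at 159.9 ± 1.82. In Cx43 cKO the order again began with Mertk at 281.5 ± 9.89 TPM and Axl at 184.8 ± 4.29, the latter overlapping Scarb2. Also without separation were Colec12 and Cd36 in APP/PS1, and Pros1 and Lrp1 in Cx43 cKO. TPM values are shares of a library, and the median gene stood 0.35 lower on this log2 scale in APP/PS1 than in WT, so these levels serve for the order within a group and not for changes between groups.

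**Figure D1:**
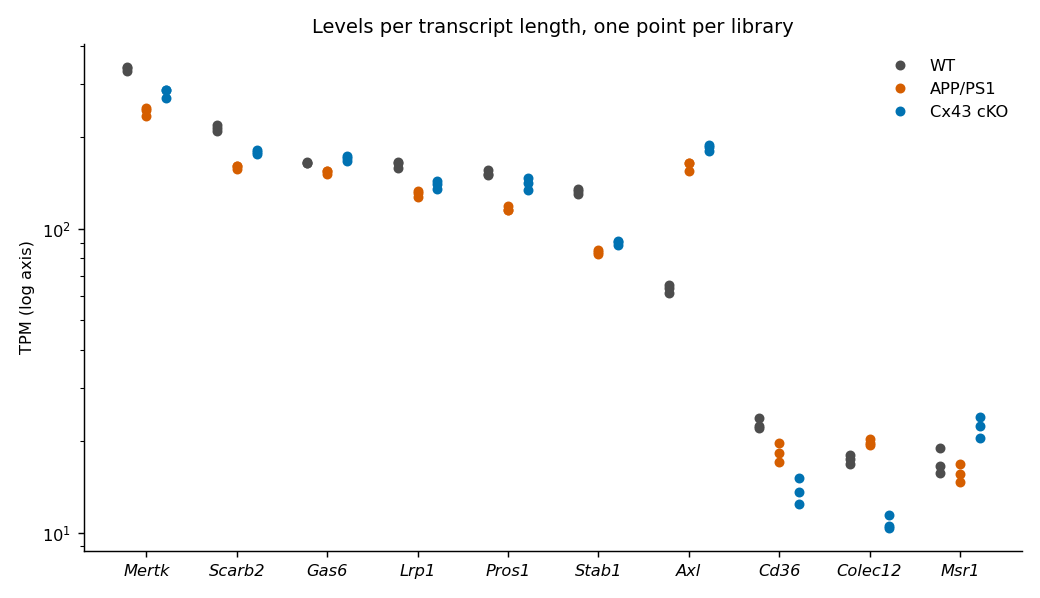
TPM of each member (log axis) in the WT, APP/PS1 and Cx43 cKO libraries, 1 point per library. Mertk is highest in each group, and Axl lies at 63.5 TPM in WT, below Scarb2 and Stab1, but level with Scarb2 in the other groups.

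Shown are windows at the starts of the TAM receptor and ligand genes. These 4 genes belong to the same ligand-receptor system and moved by very different amounts. Each window is the 250 bases before a RefSeq start of the gene, on its own strand from 5′ to 3′. For Axl that start is of a shorter gene model, and most of the window lies within the locus given below. The sequences are from mouse GRCm38.p6, the build named in the submitters' processing notes. They are Mertk at chr2:128698665-128698914 (plus strand), Axl at chr7:25788734-25788983 (minus), Gas6 at chr8:13494536-13494785 (minus) and Pros1 at chr16:62854057-62854306 (plus). Capitals mark GGGCGG or its complement CCGCCC, the GC box bound by Sp factors, and GAGGAA or its complement TTCCTC, a core recognised by the myeloid factor PU.1.
Mertk: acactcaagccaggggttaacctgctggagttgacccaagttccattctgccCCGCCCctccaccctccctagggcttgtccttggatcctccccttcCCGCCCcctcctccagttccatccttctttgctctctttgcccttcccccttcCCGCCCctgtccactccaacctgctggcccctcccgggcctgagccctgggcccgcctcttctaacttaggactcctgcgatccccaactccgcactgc
Axl: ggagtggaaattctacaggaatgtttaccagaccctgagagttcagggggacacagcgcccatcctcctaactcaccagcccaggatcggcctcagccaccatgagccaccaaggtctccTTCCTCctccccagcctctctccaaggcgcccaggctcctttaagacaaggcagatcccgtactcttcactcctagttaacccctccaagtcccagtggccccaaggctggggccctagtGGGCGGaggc
Gas6: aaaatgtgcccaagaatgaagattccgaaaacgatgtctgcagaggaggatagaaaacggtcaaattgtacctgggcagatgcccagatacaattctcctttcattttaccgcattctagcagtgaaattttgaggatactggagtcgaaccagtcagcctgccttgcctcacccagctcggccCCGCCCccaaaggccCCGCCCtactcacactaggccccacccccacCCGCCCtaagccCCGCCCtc
Pros1: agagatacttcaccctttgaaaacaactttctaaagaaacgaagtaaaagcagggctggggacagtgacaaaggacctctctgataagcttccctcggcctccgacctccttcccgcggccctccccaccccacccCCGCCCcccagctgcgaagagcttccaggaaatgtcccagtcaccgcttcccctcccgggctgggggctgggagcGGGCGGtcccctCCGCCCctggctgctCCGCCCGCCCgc

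The GC box occurred 3 times in the Mertk window, once in the Axl window and 4 times in the Gas6 window. The Pros1 window held 5, where the last pair overlaps. Counting either strand, 7 of the 8 members with a window examined held at least 1 GC box, against 32.7% of 32851 upstream windows of the same length. The window of Stab1 held none. The PU.1 core was present in the windows of Axl and Stab1, and 23.3% of all windows hold it. A TATAAA box and CACGTGAC, the letters of the site bound by lysosomal gene regulators of the TFEB family, were in none of the 8 windows, against 12.4% and 1.85% of all windows. The windows of Mertk and Pros1 held 63.6% and 64.4% G and C, against 60.0% for Axl, 54.8% for Gas6 and a median of 52.4%. A match is a description of letters and not of a bound site. The motifs were chosen after these windows had been scanned, and the windows of the background were not matched for G and C. The shares are therefore descriptions and test nothing. The Axl window precedes the start of a shorter RefSeq model. The longer model, whose locus is given below, starts inside this window, so most of the window lies within it. Both marked sites of Axl are in that part.

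Axl was the member with the largest change in APP/PS1 against WT, a rise of over 3-fold, while Mertk moved by about 5% with TMM scaling. Axl (gene ID 26362, chr7:25756500-25788924, minus strand) had 113, 109 and 115 CPM for the WT libraries, 356.9, 383.2 and 384.0 for APP/PS1, and 364.5, 376.7 and 382.6 for Cx43 cKO. Each library of either amyloid group lay above 350 CPM, while those of APP/PS1 and Cx43 cKO fully overlapped. The level was 3.35-fold higher in APP/PS1 than in WT, a log2 change of 1.74 (SE 0.035, edgeR adjusted p = 4.34e-24), and 3.34-fold higher in Cx43 cKO than in WT. Between Cx43 cKO and APP/PS1 the log2 difference was −0.0003 (SE 0.033, edgeR adjusted p = 0.995), with a 95% interval of −0.067 to 0.067, and its sign turned under other scalings (0.030 on library totals). It was called higher on the TPM scale (0.19, limma adjusted p = 0.000867) and lower with length offsets and replicate block together (−0.069, edgeR adjusted p = 0.000941). CPM here is the count scaled to the library size after TMM.

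Mertk (gene ID 17289, chr2:128698915-128803162, plus strand) had 634.1, 619.2 and 639.1 CPM for WT, 603.2, 580.8 and 612.6 for APP/PS1 and 614.2, 581.7 and 617.5 for Cx43 cKO. The APP/PS1 libraries lay just below the WT libraries, without overlap, and the Cx43 cKO libraries spanned the same range as APP/PS1. The log2 change in APP/PS1 against WT was −0.07 (SE 0.030, edgeR adjusted p = 0.0329), but −0.47 on the TPM scale, 0.035 when transcript-length offsets were added and a called 0.036 with those offsets and a replicate block (edgeR adjusted p = 0.0167), and its call was lost without WT library 1 (−0.071), without WT library 3 (−0.066) or without APP/PS1 library 2 (−0.053). With all libraries the call was also lost with DESeq2 (adjusted p = 0.144), with DESeq2 size factors in edgeR (adjusted p = 0.116) and when these groups alone were fitted with edgeR (−0.040, adjusted p = 0.248). The differences of Cx43 cKO were 0.01 from APP/PS1 (edgeR adjusted p = 0.732, 95% interval −0.048 to 0.075) and −0.06 from WT (edgeR adjusted p = 0.0915). The difference from WT was called on library totals (−0.17, edgeR adjusted p = 2.94e-05), on both FPKM scales (−0.17), on the TPM scale (−0.26) and with a replicate block (−0.062, edgeR adjusted p = 6.25e-05). The difference from APP/PS1 was 0.21 and called on the TPM scale. It turned sign with length offsets (−0.056), where a replicate block made it a call (edgeR adjusted p = 0.000687), and without APP/PS1 library 2 (−0.011) or Cx43 cKO library 3 (−0.0020). Tyro3, the remaining TAM receptor, was scarce and fell by 0.31 on the log2 scale in APP/PS1 against WT (SE 0.088, edgeR adjusted p = 0.00418), a call that was lost with length offsets (−0.20, edgeR adjusted p = 0.0555) and with DESeq2 (−0.29, adjusted p = 0.0515).

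A ratio of a pair of genes within a library does not depend on how libraries are scaled. There were 17.5 to 18.0 Axl counts per 100 Mertk counts for the WT libraries, 59.2 to 66.0 for APP/PS1 and 59.3 to 64.8 for Cx43 cKO. Every library of the amyloid groups thus stood above every WT library, and the amyloid groups overlapped. The log2 ratio was −2.49 ± 0.018 for WT, −0.68 ± 0.079 for APP/PS1 and −0.69 ± 0.063 for Cx43 cKO. The difference of 1.82 between APP/PS1 and WT and that of 1.80 between Cx43 cKO and WT each had an exact two-sided permutation p of 0.1, the smallest that 3 against 3 libraries can give, and 0.12 after adjustment over 6 ratio tests. For Cx43 cKO against APP/PS1 the difference was −0.01 with an exact permutation p of 0.8 (adjusted p 0.8), and it was 0.018 without Cx43 cKO library 1 and 0.026 without APP/PS1 library 2.

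**Figure D2:**
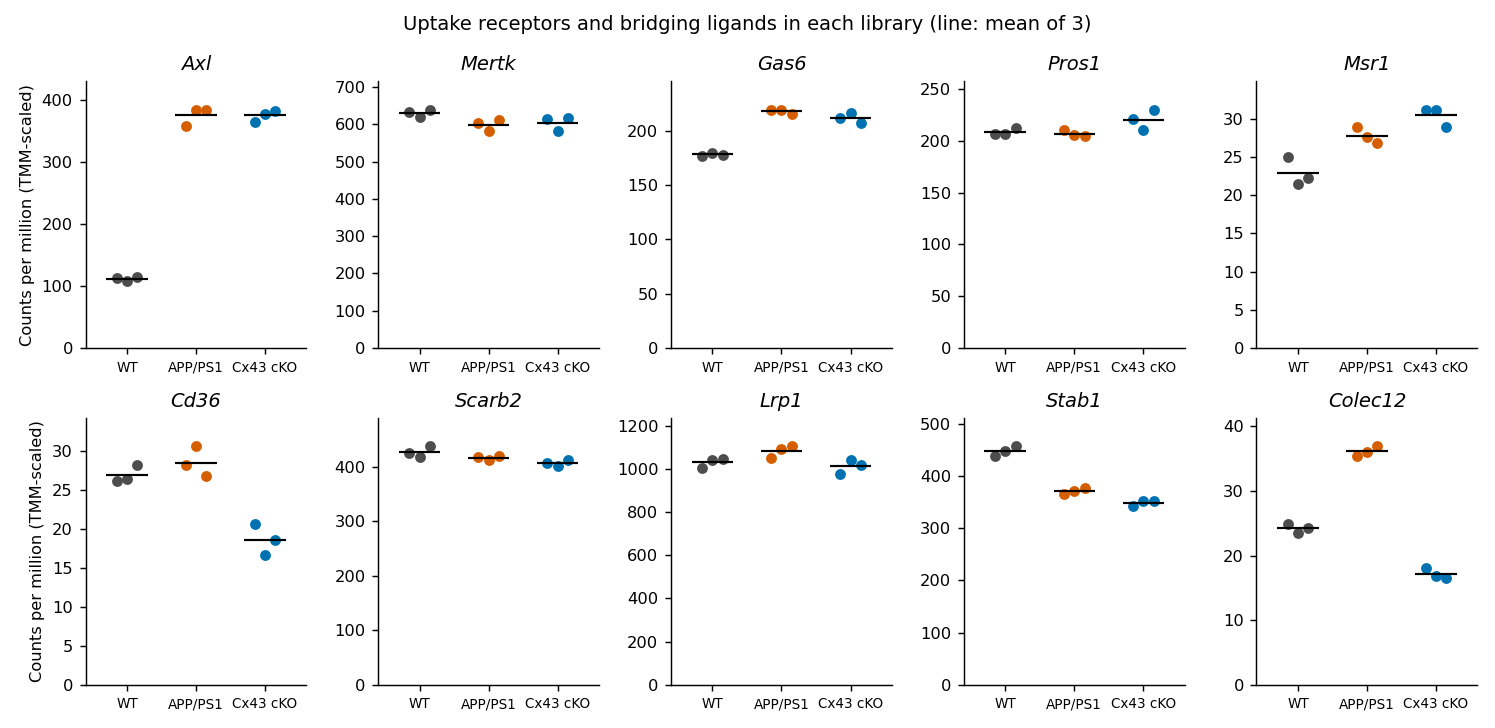
CPM of each of the 10 members in every library, 1 panel per gene with its own axis from 0, points for the libraries of WT, APP/PS1 and Cx43 cKO and a line at the mean of 3. Axl separates WT (109 to 115 CPM) from both amyloid groups, while Colec12 and Cd36 are lowest in Cx43 cKO.

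Gas6, the ligand of all TAM receptors, was higher in both amyloid groups, whereas the direction of Pros1, which encodes protein S, depended on the scaling. Gas6 (gene ID 14456, chr8:13465374-13494535, minus strand) had 177.1, 180.1 and 178.0 CPM for WT, 219.2, 219.5 and 215.6 for APP/PS1 and 211.5, 216.2 and 207.6 for Cx43 cKO. Each amyloid library exceeded each WT library by over 25 CPM. The gene rose by 0.29 on the log2 scale in APP/PS1 (SE 0.030, edgeR adjusted p = 5.17e-09) and by 0.25 in Cx43 cKO (edgeR adjusted p = 1.34e-07), both against WT, although the first was called lower on the TPM scale (−0.10, limma adjusted p = 0.00429), where the median gene was itself at −0.35, and the second was 0.049 there and no longer called (limma adjusted p = 0.128). On library totals the rises were 0.15 and 0.14. Between the amyloid groups the difference was −0.04 (edgeR adjusted p = 0.244, 95% interval −0.10 to 0.020) and a called 0.15 on the TPM scale (limma adjusted p = 0.000425). With length offsets it was −0.099 and was called (edgeR adjusted p = 0.00697).

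Pros1 (gene ID 19128, chr16:62854307-62929346, plus strand) had 206.2, 206.8 and 212.3 CPM for WT, 209.8, 205.2 and 204.2 for APP/PS1 and 220.5, 210.2 and 229.9 for Cx43 cKO. The Cx43 cKO libraries stood above those of APP/PS1, the nearest pair by under 1 CPM, and the WT and APP/PS1 libraries overlapped. The log2 change was −0.01 in APP/PS1 against WT (edgeR adjusted p = 0.737), 0.09 in Cx43 cKO against APP/PS1 (SE 0.033, edgeR adjusted p = 0.0201) and 0.08 between Cx43 cKO and WT (edgeR adjusted p = 0.0515). The first turned positive with length offsets (0.067), called higher when a replicate block was added (edgeR adjusted p = 0.0132), but was called lower on library totals (−0.15, edgeR adjusted p = 0.000283), on log2(FPKM + 1) (−0.14, limma adjusted p = 0.00613) and on the TPM scale (−0.39). The last was −0.029 on library totals and called lower on the TPM scale (−0.12, limma adjusted p = 0.0159), but was called higher with DESeq2 (0.10, adjusted p = 0.0248), DESeq2 size factors (0.10), length offsets (0.10) and a replicate block (0.079, edgeR adjusted p = 0.00256). The call against APP/PS1 was lost without APP/PS1 library 2 (0.086) or 3 (0.083) and without Cx43 cKO library 3 (0.061), and with length offsets (0.037). Leaving out Cx43 cKO library 2 brought the change against WT past the threshold (0.11, edgeR adjusted p = 0.0103).

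The ratio of the ligands was compared in the same way, and no difference passed the threshold, which 3 against 3 libraries cannot reach. There were 83.8 to 87.1 Gas6 counts per 100 Pros1 counts for WT, 104.4 to 107.0 for APP/PS1 and 90.3 to 102.9 for Cx43 cKO. On counts the 3 groups did not overlap, with Cx43 cKO between WT and APP/PS1. The differences in log2 ratio were 0.30 between APP/PS1 and WT, −0.13 between Cx43 cKO and APP/PS1 and 0.17 between Cx43 cKO and WT, each with an exact two-sided permutation p of 0.1 (adjusted p 0.12). Per length, on the TPM scale, Gas6 exceeded Pros1 in every library, at 105.1 to 134.1 per 100, and there the highest Cx43 cKO library (129.85) lay just above the lowest of APP/PS1 (129.75).

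The scavenger receptors went separate ways, and the class A member Colec12 and the class B member Cd36 were the ones that distinguished Cx43 cKO most from APP/PS1. Colec12 (gene ID 140792), a collagen-containing scavenger receptor with a lectin domain that binds oxidised LDL and yeast or bacterial sugars, had 24.9, 23.4 and 24.3 CPM for WT, 35.4, 36.1 and 36.9 for APP/PS1 and 18.1, 16.8 and 16.5 for Cx43 cKO. No library of any group overlapped another group. The level was 1.49-fold higher in APP/PS1 than in WT (log2 0.58, SE 0.053, edgeR adjusted p = 5.53e-10), in Cx43 cKO 2.11-fold below that of APP/PS1 (log2 −1.08, SE 0.057, edgeR adjusted p = 7.9e-15) and 1.41-fold below that of WT (log2 −0.50, SE 0.060, edgeR adjusted p = 1.17e-07).

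Cd36 (gene ID 12491, chr5:17781690-17888959, minus strand), a receptor for fatty acids, oxidised LDL and fibrillar amyloid, had 26.2, 26.4 and 28.2 CPM for WT, 28.3, 30.7 and 26.8 for APP/PS1 and 20.7, 16.8 and 18.6 for Cx43 cKO. WT and APP/PS1 overlapped, and all Cx43 cKO libraries were lower. The gene fell by 0.62 on the log2 scale in Cx43 cKO against APP/PS1 (SE 0.070, edgeR adjusted p = 3.21e-08) and by 0.53 against WT (SE 0.070, edgeR adjusted p = 4.81e-07). The difference between APP/PS1 and WT was 0.08 (edgeR adjusted p = 0.277, 95% interval −0.050 to 0.22), −0.053 on library totals, and 0.17 with length offsets, where it passed the threshold (edgeR adjusted p = 0.0383), and it was called lower on the TPM scale (−0.30, limma adjusted p = 0.00261).

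Both genes are also expressed outside microglia, Cd36 in endothelium and monocytes and Colec12 in vessel-associated cells, and markers of those cells moved as well. The endothelial sum (10 genes) was 713 to 730 CPM for WT, 730 to 751 for APP/PS1 and 529 to 555 for Cx43 cKO, where 9 of the 10 genes fell against APP/PS1 and none rose. The mural cell and fibroblast sum (10 genes) was 746 to 795, 634 to 669 and 509 to 536 CPM in the same order of groups, with 6 genes lower and none higher in Cx43 cKO against APP/PS1. Per 1000 CPM of the endothelial sum, Cd36 stood at 36.3 to 38.7 for WT, 36.7 to 41.8 for APP/PS1 and 31.7 to 37.2 for Cx43 cKO, so on this scale the last 2 groups overlapped. Scaled to the border macrophage sum, whose values follow with Stab1, Cd36 was 41.7 to 45.1 for WT, 57.8 to 64.8 for APP/PS1 and 41.3 to 49.98 for Cx43 cKO, so that Cx43 cKO lay below APP/PS1 but overlapped WT. Scaled to the mural and fibroblast sum, Cd36 was 34.9 to 35.5, 40.2 to 45.8 and 32.3 to 40.6 in the same order, and Cx43 cKO overlapped both. Per 1000 CPM of the endothelial sum, Colec12 stood at 32.9 to 34.4, 47.2 to 50.5 and 30.0 to 32.6, and APP/PS1 remained apart from both other groups. The astrocyte sum was 542 to 547 CPM in WT, and 735 to 759 and 568 to 580 in APP/PS1 and in the Cx43 cKO libraries. Scaled to 1000 CPM of that sum, Colec12 was 43.2 to 45.5 for WT, 47.8 to 49.1 for APP/PS1 and 28.5 to 31.3 for Cx43 cKO, so that APP/PS1 lay closer to WT and Cx43 cKO far below both. Per 1000 CPM of the mural and fibroblast sum, Colec12 was 30.6 to 33.4 for WT, 54.0 to 55.9 for APP/PS1 and 30.8 to 35.6 for Cx43 cKO. The monocyte and neutrophil sum moved opposite to Cd36, from 914 to 948 CPM in APP/PS1 up to 8620 to 8746 in Cx43 cKO. The part of these cells in the levels of Cd36 and Colec12 was not tested. In bulk RNA, fewer cells of a type and less RNA per cell cannot be told apart.

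Stab1 was the member that fell most in APP/PS1, and it was lower again in Cx43 cKO. Stab1 (gene ID 192187, chr14:31139017-31168651, minus strand) encodes stabilin-1, a large endocytic receptor of macrophages that binds phosphatidylserine and acetylated LDL. It had 437.4, 448.6 and 456.9 CPM for WT, 364.9, 370.9 and 378.0 for APP/PS1 and 342.0, 351.7 and 352.2 for Cx43 cKO. The 3 groups were stepped without overlap. The log2 change was −0.27 in APP/PS1 against WT (SE 0.029, edgeR adjusted p = 7.51e-09) and −0.36 between Cx43 cKO and WT (edgeR adjusted p = 5.21e-11). The smaller change of −0.09 between Cx43 cKO and APP/PS1 (edgeR adjusted p = 0.00993) did not pass on library totals (−0.061), on log2(FPKM + 1) (−0.060) or without APP/PS1 library 3 (−0.080), and it was called higher on the TPM scale (0.10, limma adjusted p = 0.0115), where the median gene was at 0.14. Markers of border macrophages, which also carry stabilin-1, moved beside it: their sum over 10 genes was 626 to 629 CPM for WT, 463.5 to 477.5 for APP/PS1 and 397 to 413 for Cx43 cKO. Against WT, 6 of these genes fell and 3 rose in APP/PS1, and all 10 fell in Cx43 cKO. Per 1000 CPM of this sum Stab1 did not fall but stood at 696 to 729 for WT, 764 to 815 for APP/PS1 and 827 to 887 for Cx43 cKO. The part of these cells in the result was not tested. On the same scale Colec12 stood at 37.4 to 39.6, 74.2 to 79.6 and 41.5 to 43.8.

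Msr1 (gene ID 20288, chr8:39543232-39642750) encodes the class A scavenger receptor of macrophages, which binds modified LDL and amyloid-β. It had 24.9, 21.4 and 22.2 CPM for WT, 28.9, 27.6 and 26.9 for APP/PS1 and 31.2, 31.1 and 29.0 for Cx43 cKO. The groups were again stepped without overlap, this time upwards, although APP/PS1 and Cx43 cKO came within 0.1 CPM of each other. The gene rose by 0.28 on the log2 scale in APP/PS1 against WT (SE 0.062, edgeR adjusted p = 0.000351), although it was −0.12 on the TPM scale and not called at 0.12 on log2(FPKM + 1) (limma adjusted p = 0.197), and by 0.41 in Cx43 cKO against WT (SE 0.061, edgeR adjusted p = 2.67e-06). The difference of 0.13 between Cx43 cKO and APP/PS1 missed the threshold (edgeR adjusted p = 0.0639), and passed it without WT library 1 (0.13), APP/PS1 library 1 (0.16) or Cx43 cKO library 3 (0.17). With all libraries it passed on library totals (0.16, edgeR adjusted p = 0.0245), on the TPM scale (0.48) and with a replicate block (0.13, edgeR adjusted p = 0.0222). The length that the deposited counts and FPKM of Msr1 imply was 3102 to 3209 bases for WT, 2940 to 3345 for APP/PS1 and 2656 to 2906 for Cx43 cKO, and on the log2(FPKM + 1) scale the same difference was 0.31 (limma adjusted p = 0.00446). The monocyte and neutrophil markers given above rose in Cx43 cKO, 11 of 11 against APP/PS1, and macrophages derived from monocytes also express Msr1. Per 1000 CPM of that sum, which includes neutrophil genes, Msr1 was 7.20 to 8.32 for WT, 28.3 to 30.8 for APP/PS1 and 3.34 to 3.61 for Cx43 cKO. Per 1000 CPM of the border macrophage sum it was 34.2 to 39.7, 57.9 to 60.5 and 73.0 to 76.8 in the same order. The part of these cells was not tested.

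Lrp1 and Scarb2 had small changes whose sign or call depended on the scaling. Lrp1 (gene ID 16971, chr10:127538157-127621148, minus strand), the large endocytic receptor of the LDL receptor family, had 1001, 1042 and 1044 CPM for WT, 1052, 1090 and 1104 for APP/PS1 and 974.3, 1039 and 1018 for Cx43 cKO. The APP/PS1 libraries lay above those of both other groups, which overlapped. The log2 change was 0.07 in APP/PS1 against WT (SE 0.029, edgeR adjusted p = 0.0363), with opposite calls on library totals (−0.066, edgeR adjusted p = 0.0446) and the TPM scale (−0.32), and −0.10 in Cx43 cKO against APP/PS1 (edgeR adjusted p = 0.00566), with an opposite call on the TPM scale (0.095, limma adjusted p = 0.0268). The first call was lost without WT library 1 (0.052) or APP/PS1 library 2 (0.067) or 3 (0.056). Against WT, Cx43 cKO differed by −0.03 (edgeR adjusted p = 0.480), or 0.019 with length offsets, which was called higher when a replicate block was added (edgeR adjusted p = 0.0361). It was called lower on library totals (−0.13, edgeR adjusted p = 0.000279), on log2(FPKM + 1) (−0.13, limma adjusted p = 0.0059), on the TPM scale (−0.22) and with a replicate block without offsets (−0.027, edgeR adjusted p = 0.005). The call against APP/PS1 was lost on log2(FPKM + 1) (−0.068, limma adjusted p = 0.105).

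Scarb2 (gene ID 12492, chr5:92441311-92505657, minus strand) encodes LIMP-2, a lysosomal membrane protein of the CD36 family. It had 424.8, 417.4 and 437.2 CPM for WT, 418.3, 411.6 and 419.4 for APP/PS1 and 406.5, 401.7 and 412.0 for Cx43 cKO. APP/PS1 overlapped both neighbours, and Cx43 cKO lay below WT. The log2 change was −0.03 in APP/PS1 against WT (edgeR adjusted p = 0.305), with a called 0.080 under length offsets, and it was called lower on library totals (−0.17, edgeR adjusted p = 6.31e-06), on log2(FPKM + 1) (−0.17, limma adjusted p = 0.000227) and on the TPM scale (−0.42). It was also −0.03 in Cx43 cKO against APP/PS1 (edgeR adjusted p = 0.322), with a called 0.16 on the TPM scale and a called −0.098 under length offsets. The change of −0.07 in Cx43 cKO against WT (edgeR adjusted p = 0.0474) was no longer called without WT library 1 (−0.071) or 3 (−0.050), or without Cx43 cKO library 1 (−0.067), 2 (−0.058) or 3 (−0.077). With all libraries its call was also lost with no filter (−0.068), these groups alone (−0.067), DESeq2 size factors (−0.044), DESeq2 (−0.043) and length offsets (−0.018, edgeR adjusted p = 0.632).

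Counted together, 5 of the 10 members were higher and 2 lower in APP/PS1 than in WT at an edgeR adjusted p of 0.05, against 59% of the 14696 tested genes called (26.9% higher and 32% lower). Between Cx43 cKO and APP/PS1, 1 was higher and 4 lower, against 55% of genes called (27.3% higher, 27.7% lower). Between Cx43 cKO and WT, 3 were higher and 4 lower, against 47.7% of genes called (24.7% higher, 23% lower). With 10 members, 7, 5 and 7 called stood within 3 genes of these backgrounds, and nothing particular to the members is read from the counts. Groups did not overlap for 7, 6 and 8 members in the 3 comparisons, against 63.5%, 59.7% and 54.6% of tested genes. The median log2 change over the members was 0.08, −0.04 and −0.04, and over all tested genes −0.04, −0.01 and −0.01. A change of 2-fold or more was seen for Axl in both comparisons with WT and for Colec12 between Cx43 cKO and APP/PS1. The comparisons share libraries in pairs, since each group enters 2 of the 3.

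**Figure D3:**
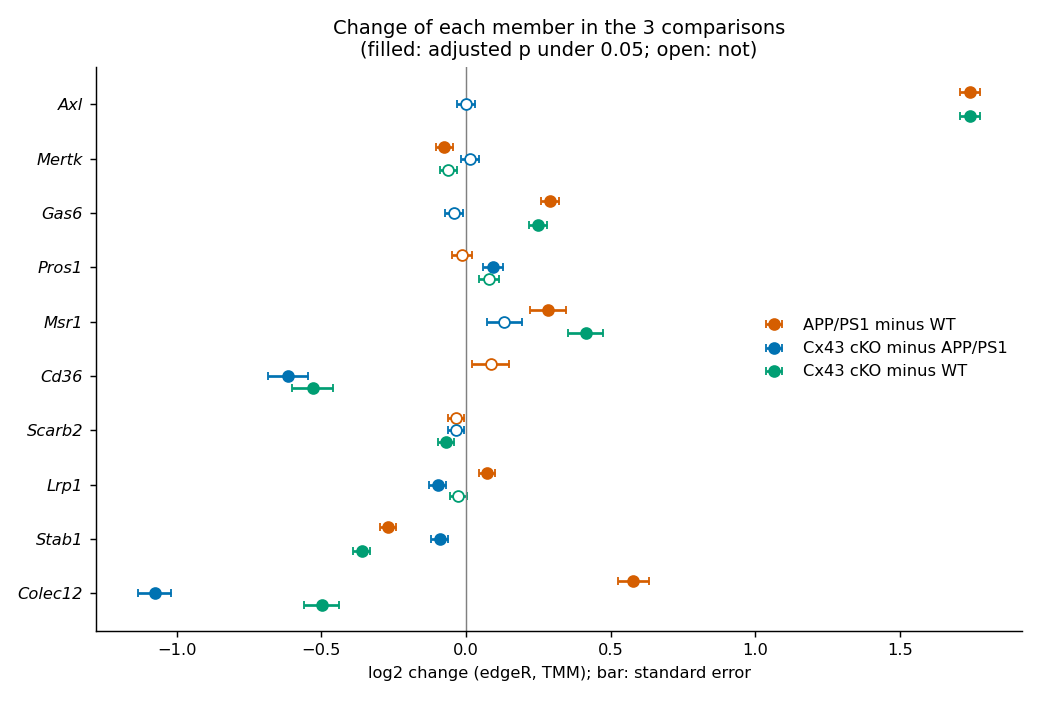
Log2 change of each member with its standard error, for each of the 3 pairs of groups, from edgeR; filled points have an adjusted p under 0.05. Axl lies at 1.74 in both comparisons with WT and at 0 between the amyloid groups, and Colec12 changes sign from 0.58 to −1.08.

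Scaling mattered for the small changes. The median log2 change of all genes between APP/PS1 and WT was −0.17 on library totals, −0.11 on log2(FPKM + 1) and −0.35 on log2(TPM + 1), and the share of called genes that were higher was 45.7% with TMM, 29.5% on library totals, 30.2% with FPKM and 14.7% with TPM. Between Cx43 cKO and APP/PS1 the TPM median was 0.14 and the share of higher calls 75.3%, against 49.6% with TMM. Between Cx43 cKO and WT the medians were −0.12 on library totals and −0.17 with TPM, with 30.4% and 19.8% of calls higher and 32.02% with log2(FPKM + 1), against 51.9% with TMM. Axl stayed at 1.34 or above against WT under every alternative, and the Colec12 difference between Cx43 cKO and APP/PS1 stayed between −1.15 and −0.83. The Colec12 rise in APP/PS1 against WT was 0.18 to 0.68, with the lowest value on the TPM scale. The Stab1 change in the same comparison ran from −0.66 to −0.17.

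**Figure D4:**
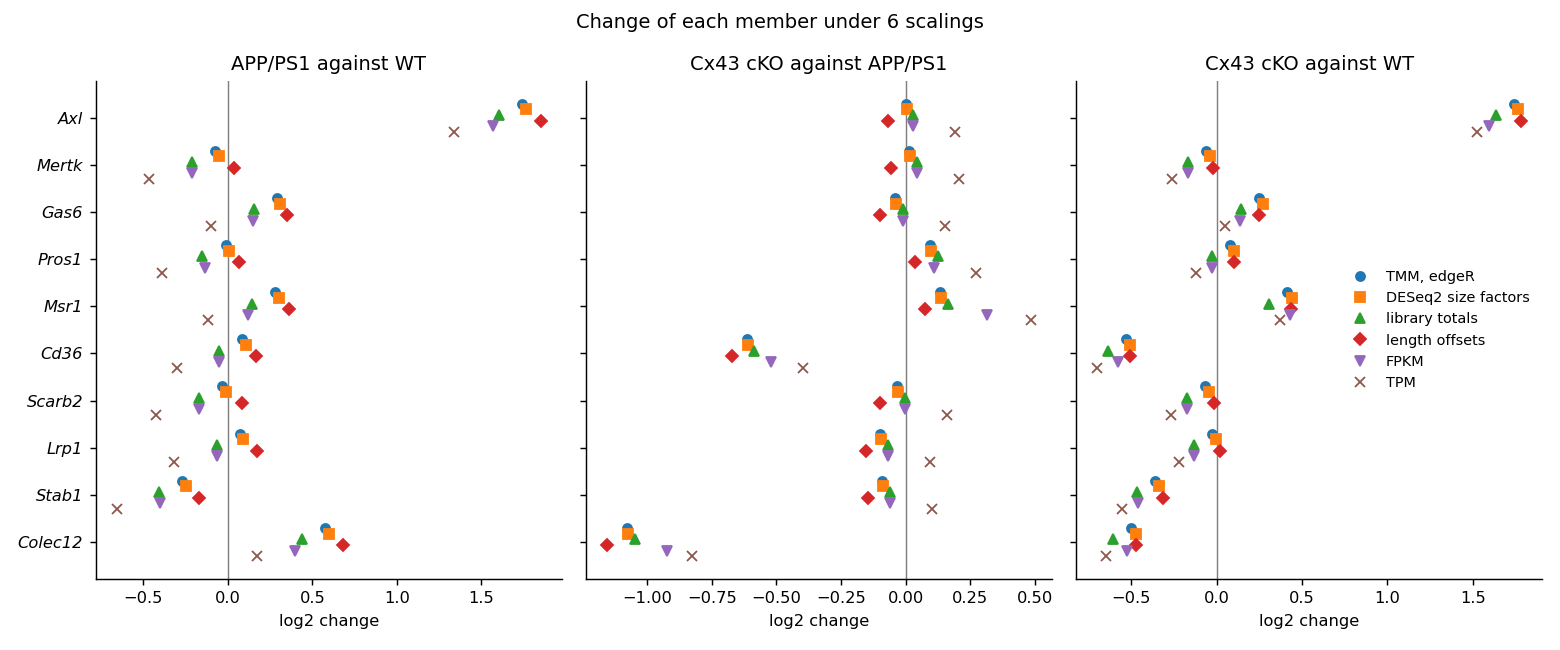
Log2 change of each member under TMM, DESeq2 size factors, library totals, transcript-length offsets, FPKM and TPM, by comparison. The values of Axl and Colec12 keep their sign against WT under each, while in APP/PS1 against WT those of Mertk, Gas6, Pros1, Msr1, Cd36, Scarb2 and Lrp1 lie on either side of 0.

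The genes that work with these receptors moved in both directions. Their lists were chosen with earlier results of these data known, so their counts are descriptions, to be set against the shares over all tested genes: 26.9% higher and 32% lower in APP/PS1 against WT, 27.3% and 27.7% between Cx43 cKO and APP/PS1, and 24.7% and 23% between Cx43 cKO and WT. Of the 11 tested TAM partners, 2 rose and 6 fell in APP/PS1 against WT, with a median of −0.18. The vitamin K epoxide reductase Vkorc1, which sustains the carboxylation that GAS6 and protein S need, rose by 1.13 on the log2 scale (0.44 with length offsets), and Socs3, an inhibitor of cytokine signalling, fell by 0.61. Of the same genes, 3 rose and 2 fell in Cx43 cKO against APP/PS1. The galectin gene Lgals3, whose product binds MERTK, rose by 1.05, Ptk2 fell by 0.35 (not called at −0.16 on the TPM scale), and Vkorc1 fell by 0.42 but was at 0.12 with length offsets. Against WT, 2 rose and 3 fell in Cx43 cKO, or 2 and 7 on library totals. Lgals3 at 0.86 and Vkorc1 at 0.71 were among those that rose.

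Of 24 other genes of phosphatidylserine recognition and engulfment, 8 rose and 8 fell in APP/PS1 against WT, with a median of −0.02. Anxa5, which binds phosphatidylserine, rose by 1.05 on the log2 scale. Anxa1, an annexin abundant in neutrophils and monocytes, fell by 1.53, and Cd300lf, a myeloid phosphatidylserine receptor, fell by 0.87. All 11 monocyte and neutrophil markers fell in the same comparison, with a median of −1.68. The Cx43 cKO libraries had 10 higher and 8 lower than APP/PS1, and Anxa1 and Cd300lf rose by 3.34 and 2.31, in the same comparison in which the 11 monocyte and neutrophil markers rose. Their part in these changes was not tested. The adaptor gene Gulp1 fell by 1.13. Against WT, 13 rose and 9 fell in Cx43 cKO, with Anxa1 at 1.81 and Cd300lf at 1.44. Timd4, a phosphatidylserine receptor of resident macrophages, fell by 1.41, but was scarce at 3.26 CPM in WT and 1.22 in Cx43 cKO.

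Other scavenger receptors were split as well, with 2 of 13 tested genes higher and 6 lower in APP/PS1 against WT and a median of −0.39. Cd68, the lysosomal scavenger receptor of phagocytes, rose by 0.99 on the log2 scale, and Olr1 and Scarf1, receptors for oxidised LDL, fell by 0.84 and 0.74. The list shares Mrc1 and Cd163 with the border macrophage markers, at −0.39 and −0.43. From APP/PS1 to Cx43 cKO, 4 rose and 3 fell, led by Olr1 at 2.17, Scara3 at −0.94 and Ager at 0.75. Against WT, 3 rose and 6 fell in Cx43 cKO, with Olr1 at 1.33, Cd68 at 1.05 and the HDL receptor gene Scarb1 at 0.70.

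Around Lrp1, 4 of 14 tested genes of the LDL receptor family and its partners rose and 6 fell in APP/PS1 against WT. Apoe, a ligand of LRP1, had the largest rise, 1.93 on the log2 scale, and Lrpap1, the chaperone of the family, stood at 1.21. From APP/PS1 to Cx43 cKO, 5 rose and 5 fell, with Sorl1, a sorting receptor for APP, at 1.32, Lrp8 at 0.40 and the ubiquitin ligase gene Mylip at −0.36. Against WT, 5 rose and 6 fell in Cx43 cKO, and Apoe and Lrpap1 stood at 2.02 and 0.85.

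Around LIMP-2 and the lysosomal membrane, in APP/PS1 against WT, 6 of 10 rose and 2 fell, with a median of 0.45, and Cd63 and Npc2 rose by 1.80 and 0.99 on the log2 scale, the first by 1.1 with length offsets. In Cx43 cKO against WT, 8 rose and 1 fell, with a median of 0.43, and Cd63, Gnptab and Npc2 stood at 0.93, 0.77 and 0.77. Between the amyloid groups 6 rose and 3 fell, with Cd63 at −0.86 (−0.33 with length offsets), Psap at 0.27 and Ap3b1 at 0.22.

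Of 11 co-receptors and signalling partners of CD36, 5 rose and 4 fell in APP/PS1 against WT. The fatty acid-binding protein gene Fabp5 rose by 4.05 on the log2 scale, the tetraspanin Cd9 by 1.41 and Tlr2 by 0.59. The rise of Tlr2 was 0.20 at its lowest among the alternatives. In Cx43 cKO against APP/PS1, 3 rose and 5 fell, with Fabp5 at −1.86, Cd9 at −0.38 (−0.18 on the TPM scale) and the kinase gene Fyn at 0.28. Against WT, 4 rose and 2 fell in Cx43 cKO, or 4 and 7 on library totals, FPKM and TPM. In that comparison Fabp5, Cd9 and Fyn stood at 2.19, 1.04 and 0.76. Among 8 nuclear receptors and factors known to act on uptake receptor genes, none rose and 6 fell in APP/PS1 against WT. Among the called genes the largest falls were those of the liver X receptor gene Nr1h3 at −0.77, Rxrb at −0.40 and Nr1h2 at −0.25. In Cx43 cKO against APP/PS1, 3 rose and 1 fell, with Nr1h2 at 0.26, and against WT 1 rose and 4 fell, with Nr1h3 at −1.14 and Rxrb at −0.27.

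**Figure D5:**
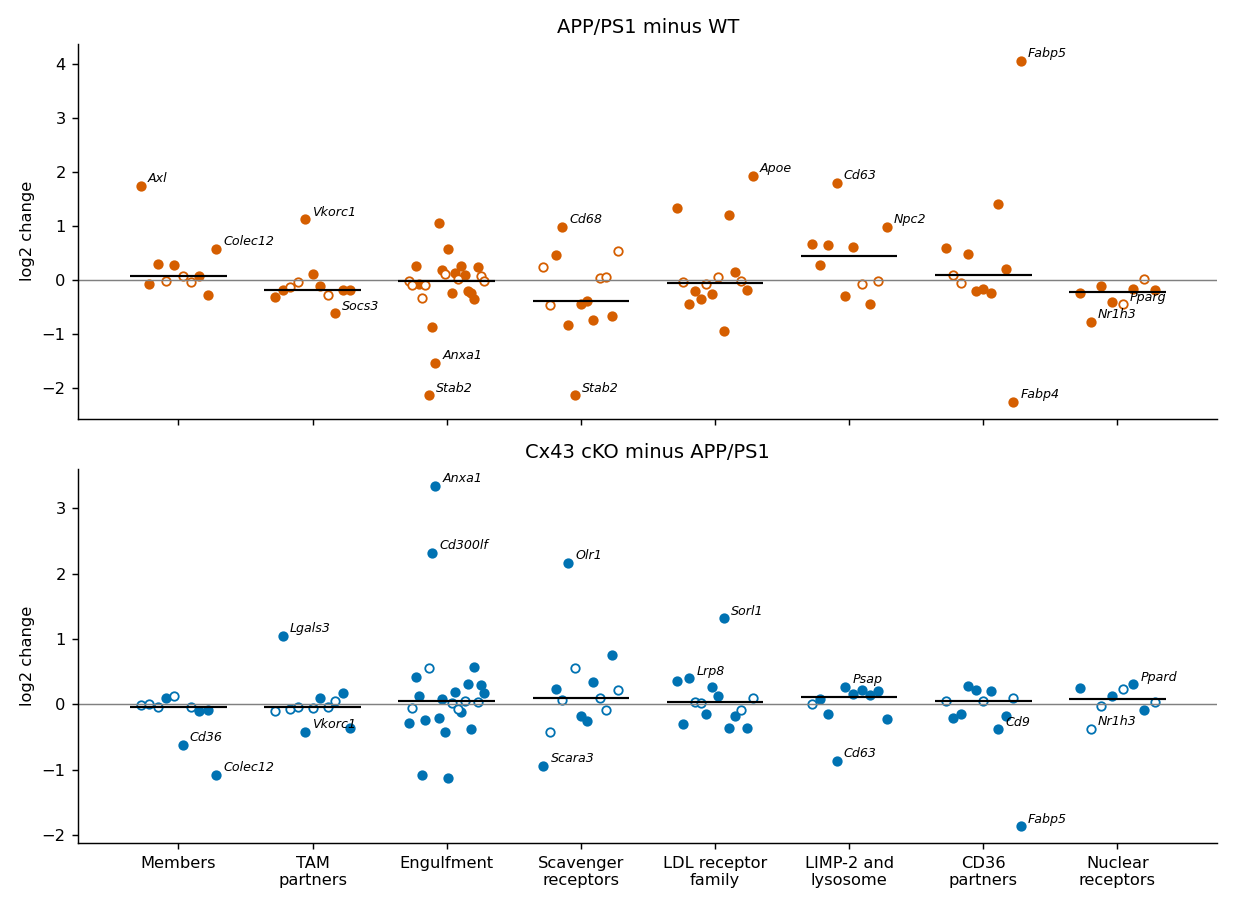
Log2 change of each tested gene of the members and the partner lists, in APP/PS1 against WT (above) and Cx43 cKO against APP/PS1 (below), 1 point per gene, filled where the edgeR adjusted p was under 0.05 and open elsewhere, with a line at the list median. Most lists spread on both sides of 0, and the LIMP-2 list has a median of 0.45 in APP/PS1 against WT. Gene names mark points among those farthest from 0 in each list, with no limit on expression.

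Genes with the pattern most like that of Axl over the 9 libraries were sought by the root mean square difference of log2 CPM after centring each gene on its own mean, among 9162 genes of at least 10 CPM. These were Arhgap24 (0.098), Chst2 (0.11) and Serpine2 (0.12). The nearest to Mertk, which was almost flat, were Erbin (0.019), Sncaip (0.022) and Tcf12 (0.022).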

How the data were processed

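Poly-A RNA of 9 libraries, 3 for each genotype in the labels, was analysed from the deposited expression table. Per the file headers, each gene has 4 values per library, namely FPKM, TPM, an estimated count and a normalised count. The deposited estimated counts carry decimals and differ in total between libraries, while the FPKM and TPM were computed per length by the authors. The deposited normalised counts, a signal scaled by library, and the group means of the authors were left unused. HISAT, Bowtie2, DESeq2 and the build GRCm38.p6 are named in the submitters' processing notes with no role or order, and the counting program and annotation are not given in the sources used here.

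Counts were rounded to whole numbers, since the design had assumed read counts. The 14696 genes that passed filterByExpr were fitted with edgeR 4.0.16 (R 4.3.3), using TMM scaling, robust quasi-likelihood dispersion and a mean per group over all 9 libraries. The biological coefficient of variation was 3.14%. P-values were adjusted by Benjamini-Hochberg over all tested genes with a threshold of 0.05, and all 10 members were tested. For ratios, exact permutation tests over libraries were two-sided. Alternatives used DESeq2 1.42.0, limma 3.58.1 on log2(FPKM + 1), log2(FPKM + 0.1) and log2(TPM + 1), voom, library totals, transcript-length offsets, other filters and left-out libraries. For the length offsets, genes were sorted into 10 bins by the length that deposited counts and FPKM imply. The offset of a bin in a library was the median deviation of log2 CPM over its genes, taken from these same data. Such offsets centre the bins and do not correct each transcript for its own length. Fold changes on a log2(value + pseudocount) scale understate the change of low genes. The code was tested on simulated data. Intervals cover the spread between libraries.

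The members and the gene lists were chosen with earlier results of these data known. Named partners were, in each list and comparison, up to 3 genes with the largest log2 change among those with an adjusted p under 0.05, non-overlapping groups and a mean of 1 CPM or more. Marker-relative levels divide a gene's CPM by the summed CPM of a marker list. Loci and upstream windows came from RefSeq (GRCm38.p6). A window was matched for 8 members and examined on both strands, Msr1 had none in the table, and that of Colec12 was not used here. The motifs were chosen after the windows had been scanned. A few genes that this rule names are not reported here.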

Additional observations from a re-analysis of the deposited data

How the results depend on the processing

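Of 660 alternative values of the members' changes, 540 kept direction and call, 40 passed the threshold newly, 34 no longer passed and 46 turned sign. Direction and call held under every alternative for Axl against WT in both amyloid groups, Stab1 against WT in both, Colec12 in all 3 comparisons, Cd36 in Cx43 cKO against either group and Msr1 in Cx43 cKO against WT. For APP/PS1 against WT, 5 to 10 members were called over all alternatives and 5 to 7 when a library was left out. For Cx43 cKO against APP/PS1 the count of 5 (1 higher, 4 lower) became 8 with length offsets and replicate block together, all lower. It became 10 on the TPM scale, with 8 higher and 2 lower, and 3 without APP/PS1 library 3, all lower. The leave-one-out range was 3 to 6. For Cx43 cKO against WT the leave-one-out range was 6 to 7, and 6 to 10 over all alternatives. In APP/PS1 against WT, Pros1 turned to 0.0062 with DESeq2 size factors, 0.0042 with DESeq2, 0.021 when these groups alone were fitted, and 0.067 with length offsets (0.067 with block). Mertk turned to 0.035 (0.036) and Scarb2 to 0.080 (0.080) with length offsets, and Scarb2 was 0.00095 with these groups alone. On library totals, log2(FPKM + 1), log2(FPKM + 0.1) and TPM, Cd36 was −0.053, −0.056, −0.061 and −0.30, and Lrp1 −0.066, −0.065, −0.066 and −0.32. TPM also turned Gas6 to −0.10, Msr1 to −0.12, Gja1 to −0.14 and Ddx3y to −0.21, and Cx3cr1 turned to 0.0017 (DESeq2 size factors), 0.017 (these groups alone), 0.085 (length offsets) and 0.085 (with block). In Cx43 cKO against APP/PS1, Axl turned to 0.0043 (DESeq2 size factors), 0.030 (library totals), 0.0011 (no filter), 0.026 and 0.027 (FPKM), 0.19 (TPM), 0.00024 (voom) and 0.0070 (DESeq2), and ranged from −0.033 to 0.020 when a library was left out. Mertk turned to −0.056 (−0.056 with block) with length offsets and ranged from −0.011 to 0.039 leaving out a library, and Vkorc1 turned to 0.12 (0.12). TPM turned Gas6 to 0.15, Scarb2 to 0.16, Lrp1 to 0.095 and Stab1 to 0.10. In Cx43 cKO against WT, Pros1 turned to −0.029 (library totals), −0.030 and −0.030 (FPKM) and −0.12 (TPM), Lrp1 to 0.019 (0.019) with length offsets, and Ppard to −0.043 on the TPM scale. The Axl to Mertk ratio of Cx43 cKO against APP/PS1 ranged from −0.053 to 0.026 leaving out a library. Between Cx43 cKO and WT, the 5 TAM partners called became 9 on library totals, with 2 higher and 7 lower. They became 8 with FPKM at either pseudocount (2 higher, 6 lower) and 10 with TPM (2 higher, 8 lower). The 6 CD36 partners called became 11 on each of these scales, with 4 higher and 7 lower. The causes were not tested. The main fit did not pair libraries by replicate number, although libraries of the same number shared structure. Same-numbered libraries correlated at 0.060 to 0.26 in their deviations, and differently numbered ones at −0.26 to 0.083. Of 9 libraries, 9 correlated best with their own number. The labels do not say what the numbers stand for. With a replicate block, 7, 6 and 10 members were called in the 3 comparisons, against 7, 5 and 7 without it. With 3 libraries a group, a spread of 3.14% and 18907681 to 19565354 counts each, changes of a few percent passed the test, and Msr1, Cd36 and Colec12, at 16 to 37 CPM, had the largest standard errors among the members.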
